A study of Mus musculus with 12 samples.

Results

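Sox9, Spp1 and Pkhd1, a trio of genes expressed by the epithelial cells that line bile ducts, were followed through m6A immunoprecipitates of mouse liver RNA. Every deposited peak whose annotation names 1 of the 3 symbols was taken. This gave 14 of 37118 peaks, of which 4 carried Sox9, 6 carried Spp1 and 4 carried Pkhd1, and all 14 passed the filter on low counts. In MeRIP-seq, RNA is fragmented, fragments that carry N6-methyladenosine (m6A) are pulled down with an antibody, and the pulled-down RNA (the IP) is sequenced beside unselected input RNA. The labels describe 12 libraries from livers of male wild-type C57BL/6 mice aged 6 to 8 weeks at the start, of which the 6 IP libraries are reported here. The 3 cadmium samples came from mice given CdCl2 by gavage at 20 mg/kg/day and the 3 control samples from mice given 0 mg/kg/day, all at day 90. The protocol gives 6 animals per group, and the sources used here do not say how 3 samples relate to 6 animals. The p-values therefore measure the spread between these samples, part of which may be technical.

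Cholangiocytes are the epithelial cells of bile ducts. In liver injury, duct cells and hepatocytes that switch on duct genes can expand, which is known as a ductular reaction. SOX9 is an HMG-box transcription factor of duct cells and of hepatocytes that take on duct features. Spp1 encodes osteopontin, a secreted phosphoprotein that binds integrins and CD44 and is made by duct cells and, in injured liver, by macrophages and stellate cells as well. Pkhd1 encodes fibrocystin, a membrane protein of primary cilia of duct and kidney tubule cells, whose loss causes recessive polycystic kidney disease with malformed bile ducts.

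The promoters of Spp1 and Pkhd1 are printed because their genes were high in the same samples. They are RefSeq sequences of build GRCm38.p6, 250 bases up to the base before the transcription start, written 5′ to 3′ on the strand of the gene. For Pkhd1 this start lies inside the gene bounds used below, which reach 20618082, so the last printed bases fall within those bounds. Capitals mark the letters of a RUNX motif (AACCACA) in Spp1 and of an HNF1 motif (GTTAATNAT) in Pkhd1.

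Spp1 promoter, chr5:104434861-104435110, plus strand: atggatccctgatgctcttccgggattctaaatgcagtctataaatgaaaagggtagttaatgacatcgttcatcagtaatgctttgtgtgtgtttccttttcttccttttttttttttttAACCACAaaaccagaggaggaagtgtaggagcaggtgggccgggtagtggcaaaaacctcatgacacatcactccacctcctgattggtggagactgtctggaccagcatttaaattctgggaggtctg
Pkhd1 promoter, chr1:20618058-20618307, minus strand: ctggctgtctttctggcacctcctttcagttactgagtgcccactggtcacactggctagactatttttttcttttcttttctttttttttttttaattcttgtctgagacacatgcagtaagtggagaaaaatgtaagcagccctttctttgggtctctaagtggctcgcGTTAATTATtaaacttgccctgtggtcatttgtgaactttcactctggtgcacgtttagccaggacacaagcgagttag

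Motifs were chosen after these sequences had been seen, and searched on both strands in windows that also hold the 50 bases after the start. The RUNX letters lie at -129 from the start of Spp1 and occur in 5.27% of 32851 such windows. The HNF1 letters lie at -79 from the start of Pkhd1 and occur in 0.801% of windows. The letters GGAATG (TEAD, in 14.7% of windows), GTGGGAA (RBPJ, 6.38%), TGANTCA (AP-1, 7.81%), AACAAT (SOX, 10.7%), TGCACNC and TGCGCNC (metal response element, 12.6% and 15.4%) had no match in these windows or in a second window of Spp1. A match is a description of letters, and binding was not measured. Sox9 was not matched in this table.

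On mm10, the 4 Sox9 peaks lie on chromosome 11 within the gene (112782210 to 112787757). They span 112782791 to 112782968, 112783745 to 112784048, 112784753 to 112784880 and 112785544 to 112786102, and are numbered in that order. Spp1 lies on the plus strand of chromosome 5 (104435111 to 104441053). Its 6 peaks cover the gene from 44 bases after its start to 88 bases before its end, at 104435155 to 104435296, 104436331 to 104436661, 104437560 to 104437806, 104438162 to 104438328, 104439171 to 104439597 and 104440202 to 104440965. Peaks 1 and 2 of Spp1 also carry the symbol Gm42793, and reads of these overlapping genes cannot be told apart without strand. Pkhd1 spans 560304 bases on the minus strand of chromosome 1 (20057779 to 20618082). Its peaks, numbered from the start of the gene, lie at 20587833 to 20588037, 20523620 to 20523900, 20200911 to 20201269 and 20058077 to 20058693. Gene bounds are those of RefSeq and peak positions are as deposited. Exons and UTRs were not analysed here.

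Counts in peaks totalled 40174736 to 52338612 per sample, and the 2 largest peaks took 4.95% to 19.7% of a sample. Levels below are CPM, the counts of a sample scaled to its normalised total. An IP level can follow the amount of a gene's RNA, the share of it that is methylated, or both, since input was not used here. In whole tissue, more cells of a type and more RNA per cell cannot be told apart. Cadmium replicate 2 stood apart from the other cadmium samples for Sox9 and Spp1, so their results are also given without it.

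Sox9, Spp1 and Pkhd1 were high together in cadmium replicates 1 and 3, while cadmium replicate 2 was at control level for Sox9 and Spp1. Pkhd1 alone passed the test, with a gene total 1.91-fold higher in cadmium and 1 of its 4 peaks 2.85-fold higher. The 14 peaks had log2 changes of 0.72 to 1.52, all above 0, with a median of 1.15 beside a median of -0.0031 over all 37088 peaks tested. At an edgeR quasi-likelihood adjusted p below 0.05 (Benjamini-Hochberg over all peaks), 1 of 14 was called higher and none lower. Over all tested peaks, 3.55% were called higher. At an unadjusted p below 0.05, 12 of 14 passed. Over all genes, each taken by its peak of highest mean CPM, 3030 of 13050 passed. The 14 peaks come from 3 genes and are not separate results. Every cadmium sample exceeded every control sample in 3 of the 14, all of them in Pkhd1, beside 14.4% of all tested peaks.

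**Figure D1:**
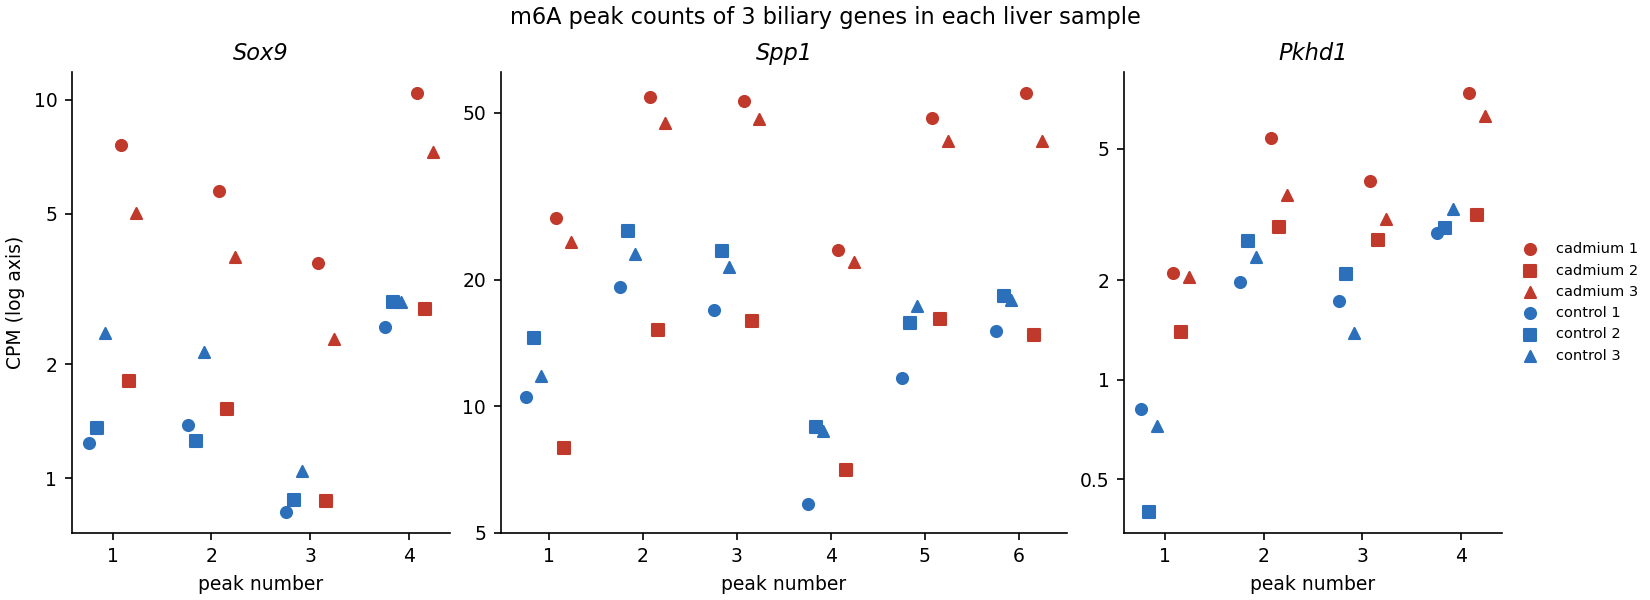
Level of each of the 14 peaks in CPM (log axis) in the 3 cadmium and 3 control samples, 1 point per sample. Cadmium replicates 1 and 3 lie above the control samples for all 14 peaks, and cadmium replicate 2 lies above them for Pkhd1 peaks 1, 2 and 3.

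Sox9, the transcription factor of the trio, had low levels, at 8.62 to 18.3 CPM per kilobase of peak averaged over the 6 samples. Its 4 peaks summed to 27.5, 6.999 and 18.5 CPM in cadmium replicates 1, 2 and 3 and to 5.95, 6.41 and 8.54 CPM in control replicates 1, 2 and 3. Replicates 1 and 3 of the cadmium group were above all controls, and replicate 2 lay within their range. The group levels were 17.7 ± 10.3 and 6.97 ± 1.38 CPM (SD, n = 3), a 2.53-fold ratio with a log2 change of 1.34 ± 0.39 (SE) and an edgeR adjusted p of 0.0609 over all gene totals. Summed raw counts behind these values were 1162, 387 and 850 in cadmium and 292, 322 and 377 in control.

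The 4 Sox9 peaks followed 1 pattern. The leading peak 4, the widest, had 10.4, 2.80 and 7.29 CPM in cadmium and 2.51, 2.93 and 2.92 CPM in control, a log2 change of 1.29 ± 0.37 (edgeR adjusted p = 0.0682). Peak 1 had 7.61, 1.81 and 5.03 CPM in cadmium and 1.24, 1.35 and 2.42 CPM in control, a log2 change of 1.52 ± 0.45 (edgeR adjusted p = 0.0731). Peaks 2 and 3 had log2 changes of 1.21 and 1.33 and edgeR adjusted p of 0.117 and 0.108. In all 4 peaks cadmium replicate 2 lay within the control range, and the groups overlapped.

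Spp1, the secreted ligand, was the most abundant of the 3, at 36.0 to 122 CPM per kilobase. Its 6 peaks summed to 263.6, 77.0 and 228 CPM in cadmium replicates 1, 2 and 3 and to 79.3, 107 and 100.2 CPM in control replicates. Cadmium replicate 2 had the lowest Spp1 total of all 6 samples, while replicates 1 and 3 were above every control. The group levels were 189.6 ± 99.1 and 95.6 ± 14.5 CPM (SD, n = 3), with a log2 change of 0.99 ± 0.36 and an edgeR adjusted p of 0.113. Without peaks 1 and 2, which Gm42793 shares, the log2 change was 1.11 (edgeR adjusted p = 0.0787).

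Along Spp1, log2 changes were lowest in peaks 1 and 2 near the start and highest in peak 5. Peak 1 had 28.0, 7.98 and 24.7 CPM in cadmium and 10.5, 14.5 and 11.8 CPM in control, a log2 change of 0.72 ± 0.36 (edgeR adjusted p = 0.283). Peak 5 had 48.7, 16.1 and 42.9 CPM in cadmium and 11.7, 15.8 and 17.3 CPM in control, a log2 change of 1.26 ± 0.34 (edgeR adjusted p = 0.0534). In replicate 2 of the cadmium group, peak 1 was below every control and peak 5 was inside their range. Peaks 2, 3, 4 and 6 had log2 changes of 0.77, 0.92, 1.16 and 1.14 and edgeR adjusted p of 0.0944 to 0.249.

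Pkhd1, the cilium protein gene, was at 6.11 to 11.2 CPM per kilobase, and its groups did not overlap. Its 4 peaks summed to 18.9, 10.1 and 15.04 CPM in cadmium replicates 1, 2 and 3 and to 7.31, 8.01 and 7.75 CPM in control replicates. All 3 cadmium samples were above all 3 controls, with replicate 2 the nearest to them. Pkhd1 rose from 7.69 ± 0.351 to 14.7 ± 4.39 CPM (SD, n = 3), with a log2 change of 0.93 ± 0.21 (edgeR adjusted p = 0.0245). Pkhd1 was the 1 gene total of 3 that was called, beside 6.35% of 13050 genes called higher on their totals. The call of the total was lost when any sample other than cadmium replicate 2 was left out, with edgeR adjusted p of 0.0509 to 0.0893.

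Pkhd1 peak 1, which begins 30045 bases into the gene, was the 1 called peak. It had 2.104, 1.39 and 2.05 CPM in cadmium and 0.815, 0.398 and 0.725 CPM in control. Each cadmium sample was above each control sample, and the log2 difference within batches 1, 2 and 3 was 1.33, 1.70 and 1.44. The peak rose from 0.646 ± 0.219 to 1.85 ± 0.395 CPM, with a log2 change of 1.51 ± 0.34 (edgeR adjusted p = 0.0272). Without cadmium replicate 1, cadmium replicate 3, control replicate 2 or control replicate 3 its edgeR adjusted p was 0.0627 to 0.115. Peak 4, near the far end of the gene, had 7.38, 3.15 and 6.29 CPM in cadmium and 2.79, 2.89 and 3.28 CPM in control, where replicate 2 fell inside the control range. Its log2 change was 0.90 ± 0.28 (edgeR adjusted p = 0.0860), and peaks 2 and 3 had 0.77 and 0.89 (edgeR adjusted p = 0.0998 and 0.0572).

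**Figure D2:**
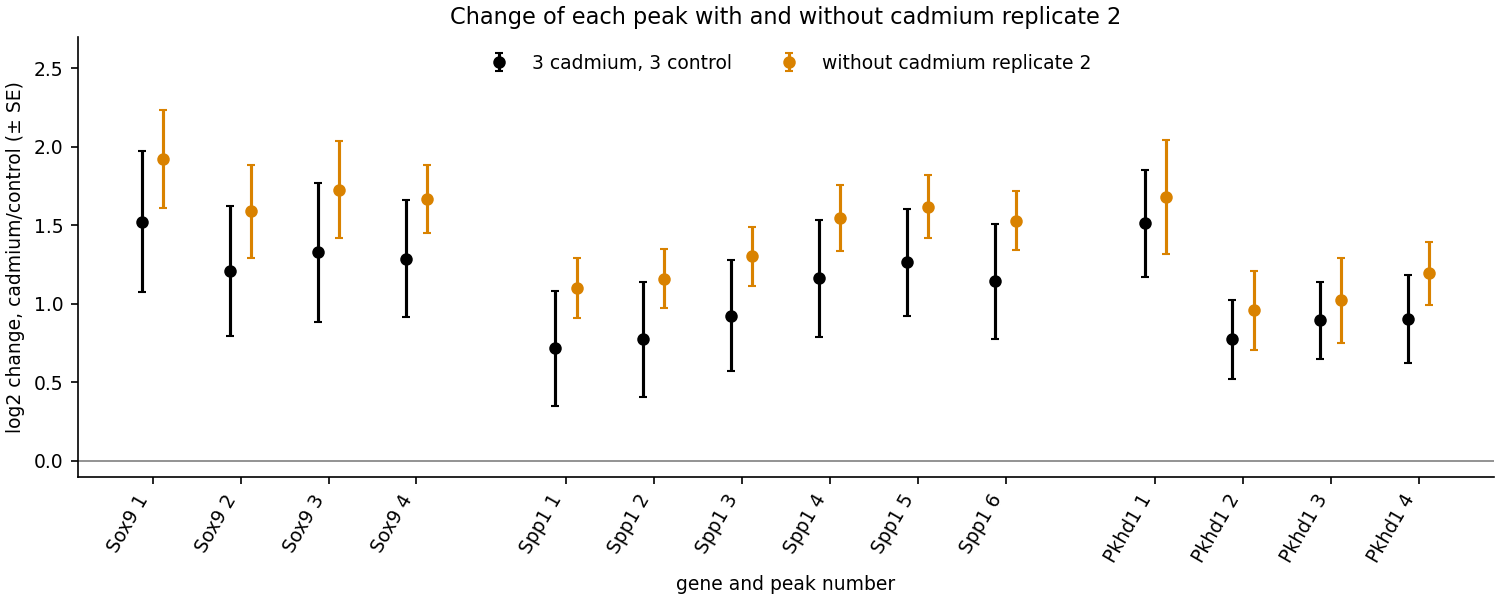
Log2 change of cadmium against control with its SE for each of the 14 peaks, over all samples and without cadmium replicate 2. Over all samples the peaks lie between 0.72 and 1.52, and without that sample between 0.96 and 1.92.

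The number of called peaks varied with the samples and the method. Without cadmium replicate 2, 12 of 14 peaks and 3 of 3 gene totals were called higher, beside 2.56% of all tested peaks and 4.75% of all gene totals in that fit. That sample is singled out here by its own Sox9 and Spp1 levels, so these calls are a description of the remaining 5 samples and no independent test. The median log2 change of the 14 peaks was then 1.54, and the Sox9, Spp1 and Pkhd1 totals had log2 changes of 1.72 ± 0.22, 1.37 ± 0.16 and 1.14 ± 0.17 (SE). Pkhd1 peaks 2 and 3 were the 2 that were not called. Without cadmium replicate 1, cadmium replicate 3, control replicate 2 or control replicate 3, 0 of the 14 peaks were called. DESeq2 on all 6 samples called 8 of the 14 peaks, beside 5.55% of all tested peaks called higher. These were the 4 Sox9 peaks, Spp1 peak 5 and Pkhd1 peaks 1, 3 and 4. On gene totals DESeq2 called Pkhd1 alone (adjusted p = 0.000718), beside 8.67% of all gene totals called higher, with DESeq2 adjusted p of 0.0909 for Sox9 and 0.215 for Spp1.

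The labels number the samples by batch, and the contrast within each batch was unequal. Sox9 totals differed by log2 2.20 in batch 1, 0.13 in batch 2 and 1.11 in batch 3. Spp1 totals differed by 1.73, -0.48 and 1.19, with cadmium below control in batch 2. Pkhd1 totals differed by 1.36, 0.33 and 0.95. The sign of the Spp1 difference in batch 2 was negative in 5 of its 6 peaks, and 0.03 in peak 5.

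The authors' deposited table calls 8 of the 14 peaks Up, namely all 4 Sox9 peaks, Spp1 peaks 4, 5 and 6 and Pkhd1 peak 1. It calls 2.66% of all peaks Up. Its call equals an unadjusted p below 0.05 with an absolute log2 change above 1 in all 37118 peaks. In the authors' deposited table, Spp1 peaks 4 and 6 are Up with adjusted p of 0.178 and 0.185, while Pkhd1 peaks 3 and 4 are not Up with adjusted p of 0.0225 and 0.0267.

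In all 3 cadmium samples, Spp1 peaks 1 and 2 held a smaller share of the gene's peak counts than in any control. This share was not among the comparisons set out in advance. Peaks 1 and 2 held 31.3%, 30.03% and 31.6% of the counts in the 6 Spp1 peaks of the cadmium samples and 37.5%, 37.9% and 34.8% of the controls. Cadmium replicate 2, whose Spp1 total was lowest, had the smallest share in these peaks, and the groups did not overlap. The means were 30.95% ± 0.809 and 36.7% ± 1.71 (SD, n = 3), a difference of -5.78 percentage points. An exact two-sided permutation test gave p = 0.1, the smallest that 3 against 3 samples allow. Groups of 3 that do not overlap always give this p, so it adds nothing to the lack of overlap. Peaks 1 and 2 also had the lowest log2 changes of the 6, so their share is a description and no independent test.

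**Figure D3:**
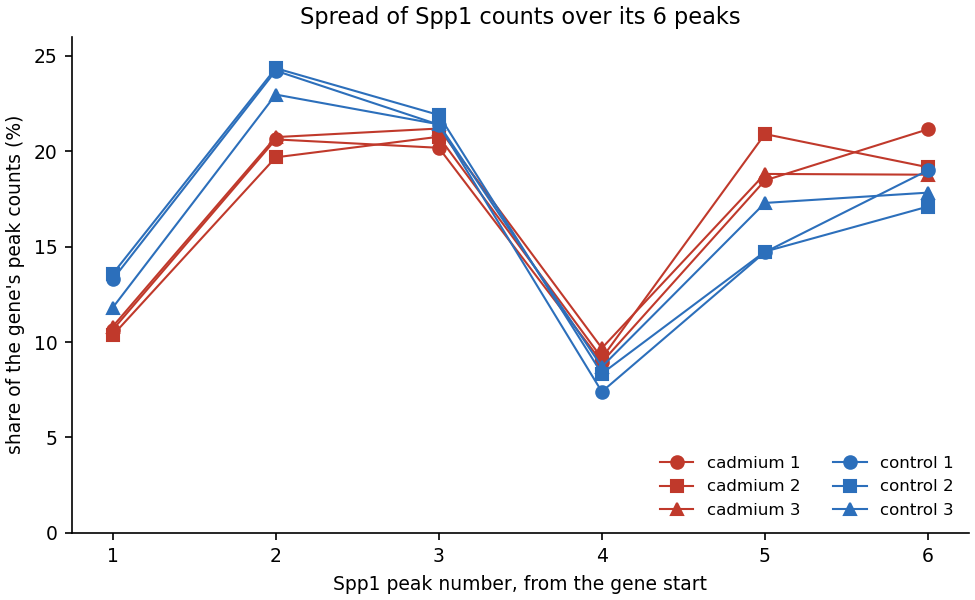
Share of the counts in the 6 Spp1 peaks that each peak held, in percent, for the 3 cadmium and 3 control samples. Cadmium samples have lower shares in peaks 1, 2 and 3 and higher shares in peaks 4 and 5, without overlap.

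Peaks 1 and 2 of Spp1 are those that Gm42793 shares. In the peaks that carry Spp1 alone, peak 3 held 29.4%, 29.7% and 31.0% of the counts of peaks 3 to 6 in cadmium and 34.2%, 35.3% and 32.8% in control, a comparison added after the data were seen. The difference was -4.11 percentage points and the groups again did not overlap (exact two-sided permutation p = 0.1). This p again follows from the lack of overlap. Among 2816 genes with 4 or more peaks and a known strand, 5.26% had a lower share in the first 2 peaks in every cadmium than in every control sample, and 5.47% a higher one. The median difference over those genes was 0.14 percentage points, with quartiles of -1.01 and 1.29, and 38 genes had a difference as low as that of Spp1 or lower. In the within-gene test of edgeR, which compares each peak with the other peaks of the same annotation, 0 of the 14 peaks passed, beside 0.0296% of 30443 peaks. Spp1 peaks 1 and 2, which also carry Gm42793, were there compared only with each other. With peaks grouped by their first symbol, Spp1 peaks 1 and 2 were set against peaks 3 to 6. They then departed by log2 changes of -0.27 and -0.22, and again 0 of the 14 peaks passed. Pkhd1 peak 1 departed from its gene by a log2 change of 0.58 in that test. It held 11.15%, 13.77% and 13.6% of the Pkhd1 counts in cadmium and 11.14%, 4.98% and 9.36% in control, where the groups nearly touched. Sox9 shares overlapped between groups in all 4 peaks.

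Genes with the pattern most like each of the 3 were sought by Pearson's r of log2 CPM over the 6 samples, as a description. Each gene stood by its leading peak, that of highest mean CPM, here Sox9 peak 4, Spp1 peak 2 and Pkhd1 peak 4. In Pkhd1 peak 4, unlike Pkhd1 peaks 1, 2 and 3, cadmium replicate 2 fell inside the control range. Sox9 and Pkhd1 had r = 0.992, Sox9 and Spp1 0.939 and Spp1 and Pkhd1 0.916. Among 106 listed genes, Epcam, a surface protein of duct cells, was the most like Sox9 (0.970) and Pkhd1 (0.988), followed by Sox4, a transcription factor (0.951 and 0.958). The nearest to Spp1 was Cd24a, a surface protein of duct and progenitor cells (0.927). Among all genes of at least 1 CPM, Sytl5 was the nearest to Sox9 (0.996) and Pkhd1 (0.993), and Gm12531 and Ikbke to Spp1 (both 0.986). Of 12779, 12778 and 12779 such genes, 29, 10 and 27 had r over 0.95 with Sox9, Spp1 and Pkhd1. The 6 points share 2 groups and 3 batches.

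Other genes of duct cells were given by their peak of highest mean level. Of 32 listed duct genes 21 had a tested peak, and 2 of these rose, Sox4 and Cd44, while none fell, beside 4.40% of 13050 genes called higher and 2.40% called lower. Their median log2 change was 0.46, beside 0.015 over all genes. Of the 21, 15 were above 0, beside 6767 of 13050 genes. An unadjusted p below 0.05 was reached by 8 of 21, beside 3030 of 13050 genes. The summed level of the 21 was not higher in cadmium, at 987, 1111 and 1222 CPM beside 1017, 1389 and 1266 CPM in control. In that sum the Fgfr2 peak, which Oat shares, averaged 694 CPM. Sox4 had 17.9, 9.26 and 14.6 CPM in cadmium and 5.85, 6.75 and 6.61 CPM in control, with all cadmium samples higher and a log2 change of 1.12 ± 0.23 (edgeR adjusted p = 0.0181). Without cadmium replicate 3 or control replicate 3, the adjusted p of Sox4 was 0.0796 and 0.0619. Cd44, a receptor that binds osteopontin and is also made by immune cells, rose by 1.24 ± 0.21 (edgeR adjusted p = 0.00849; 0.0520 without cadmium replicate 3). Epcam had 1.99, 0.705 and 1.63 CPM in cadmium and 0.693, 0.598 and 0.861 CPM in control, with cadmium replicate 2 inside the control range as for Sox9, and an edgeR adjusted p of 0.169. The listed duct genes with the highest leading peaks were Fgfr2, Onecut2, Krt8, Krt18 and Onecut1. Their log2 changes were -0.25, -0.32, 0.24, 0.56 and -0.93, and none was called (edgeR adjusted p = 0.0525 to 0.507). On summed counts, Sox4, Cd44 and Krt18 were called higher, beside 6.35% of 13050 gene totals. Onecut1 was called lower (log2 change -1.43, edgeR adjusted p = 0.0187), and its leading peak also carries Gm20649. The share of all gene totals called lower is not given here. The keratin genes Krt7 and Krt19, which define duct cells, had no tested peak.

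Among receptors of osteopontin, 9 of 11 had a tested peak. Of these, 2 rose, beside 4.40% of all genes. They were Cd44 and Itga4, an integrin subunit (log2 change 1.05 ± 0.23, edgeR adjusted p = 0.0250), and the median over the 9 was 0.51. Itga4 had edgeR adjusted p of 0.0604 to 0.104 when replicate 1 or 3 of either group was left out. Among 22 measured genes of the Notch and Hippo pathways, which direct duct cell fate, 2 rose, beside the same 4.40% of all genes. These were Hes1, a target of Notch (log2 change 1.40 ± 0.32, edgeR adjusted p = 0.0297), and Notch1, a receptor (0.65 ± 0.16, edgeR adjusted p = 0.0345). The median of the 22 was 0.06, with 15 above 0, beside 6767 of 13050 genes. Hes1 had adjusted p of 0.0770 to 0.110 without cadmium replicate 1, cadmium replicate 3, control replicate 2 or control replicate 3, and Notch1 had 0.0731 to 0.116 without any sample but control replicate 2. Of 16 measured genes of cystic liver and kidney disease and of cilia, 1 rose, Lrp5, a WNT co-receptor (0.71 ± 0.15, edgeR adjusted p = 0.0247). Lrp5 had edgeR adjusted p of 0.0545 to 0.125 in 4 of the 6 fits that left out a sample, those without replicate 3 of either group, cadmium replicate 2 or control replicate 1. This count of 1 in 16 is near the 4.40% of all genes, and the median of the 16 was 0.13.

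Macrophages and stellate cells, which can also make osteopontin, had higher summed marker levels in all 3 cadmium samples than in any control. Of 11 measured macrophage markers of 17 listed, 7 rose (Cd5l, Csf1r, Lyz2, C1qa, C1qb, C1qc and Ccr2) and none fell, beside 4.40% of all genes called higher. Above 0 were 8 of 11, beside 6767 of 13050 genes, and the median log2 change was 0.92. The 4 that were not called, chosen for mention after their values were seen, were Clec4f, Cx3cr1, Marco and Vsig4. Their log2 changes were 0.14, -0.012, -0.35 and -0.81 (Vsig4 edgeR adjusted p = 0.155). The Cx3cr1 peak also carries Wdr48 and Gorasp1, so its value cannot be assigned to Cx3cr1 alone. That peak is part of the sum that follows. The summed level of the 11 was 313, 396 and 350 CPM in cadmium and 225, 262 and 185 CPM in control, with replicate 2 the highest of all. Of the 7, 5 passed without cadmium replicate 2, 2 without cadmium replicate 3 (Lyz2 and Ccr2) and 3 without control replicate 3 (Lyz2, Ccr2 and C1qb). Lyz2, a lysozyme gene of myeloid cells, had 13.4, 13.9 and 14.4 CPM in cadmium and 4.77, 5.28 and 3.87 CPM in control (edgeR adjusted p = 0.00112). Of 11 measured stellate cell markers of 14 listed, 4 rose (Col1a1, Col1a2, Col3a1 and Ngfr), beside the same 4.40% of all genes. Above 0 were 11 of 11, beside 6767 of 13050 genes, with a median of 0.64. Their summed levels were 203, 175 and 179.7 CPM in cadmium and 101, 132 and 106 CPM in control. No measured marker in these lists was at 0 in a sample, and the defining macrophage markers Adgre1 and Cd68 and the stellate marker Acta2 had no tested peak. Among 8 endothelial markers Lyve1 rose (edgeR adjusted p = 0.0390, and 0.0539 to 0.0880 without any sample but control replicate 1), beside 4.40% of all genes. Of 11 hepatocyte markers none passed the test in edgeR, with a median of 0.00364. An unadjusted p below 0.05 was reached by 4 of these 11, beside 3030 of 13050 genes. The part of macrophages and stellate cells in the Spp1 values was not tested.

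**Figure D4:**
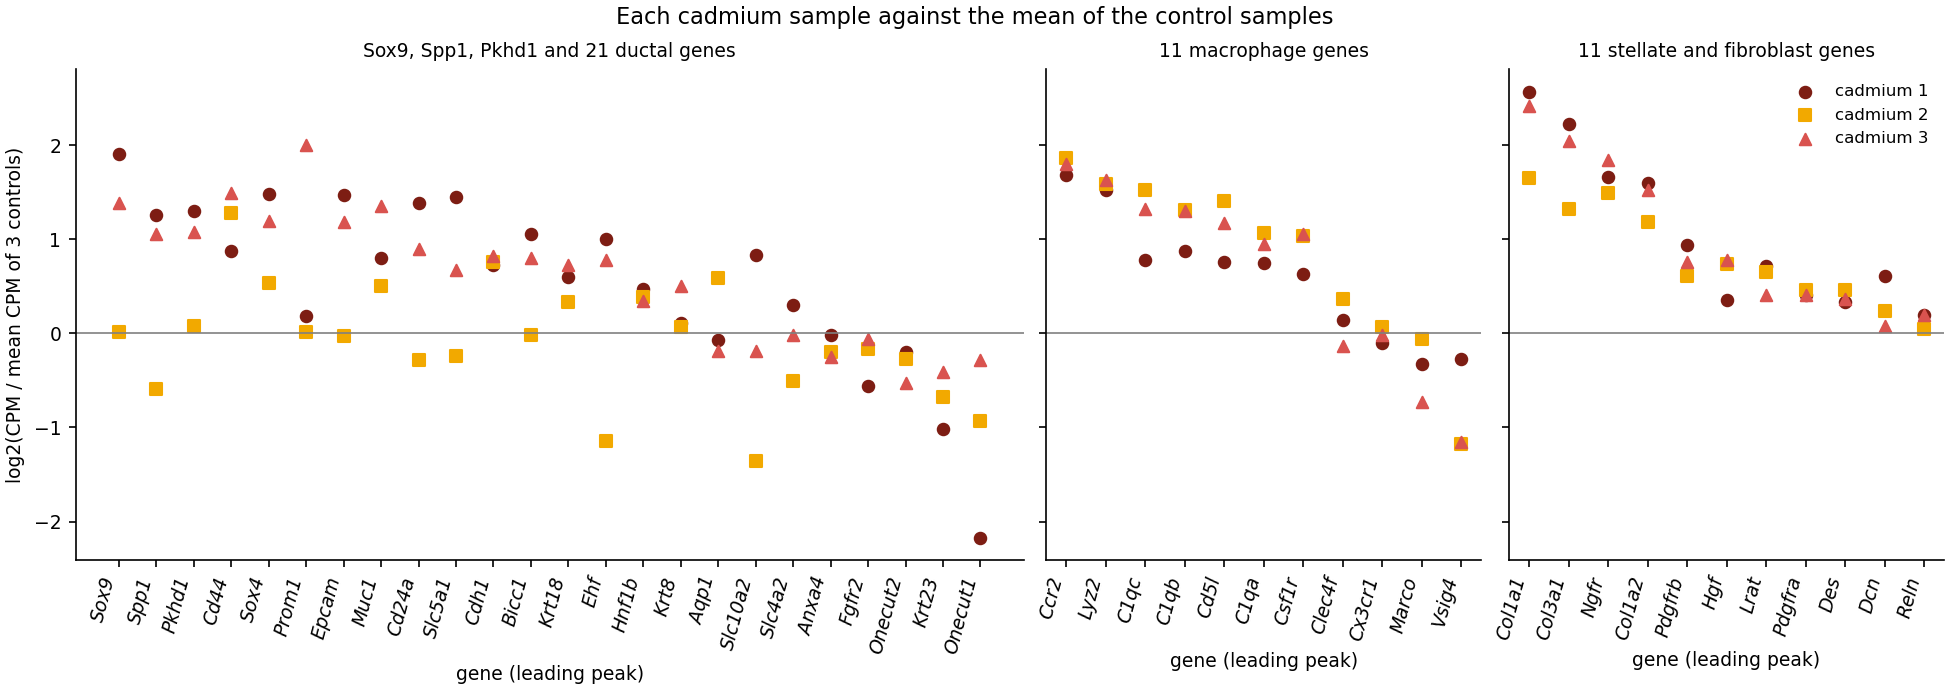
Log2 ratio of each cadmium sample to the mean of the 3 controls (CPM of the leading peak of each gene) for Sox9, Spp1, Pkhd1 and listed markers. Cadmium replicate 2 lies near or below 0 for Sox9, Spp1 and Pkhd1 and near the other cadmium samples for Lyz2, Ccr2 and Ngfr. For Col1a1, Col1a2 and Col3a1, cadmium replicate 2 lies above 0 but below the other cadmium samples.

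Cadmium replicate 2 was then set beside the other samples in each list, without a test of the difference between lists. Among duct genes, 10 had cadmium replicates 1 and 3 both above all controls, and in 5 of them (Bicc1, Cd24a, Ehf, Epcam and Slc5a1) replicate 2 was not, the pattern of Sox9 and Spp1. The same held for 4 of 9 Notch and Hippo genes, 3 of 6 cystic disease genes, 1 of 5 osteopontin receptors, 0 of 7 macrophage, 0 of 9 stellate, 0 of 1 endothelial and 1 of 3 hepatocyte markers, and for 21.1% of 2731 genes. Bicc1 counts in both the duct and the cystic disease list. Ehf, Slc5a1 and Epcam averaged 0.62, 0.93 and 1.08 CPM, so the order of their samples rests on low counts. Replicate 2 was the lowest of the 3 cadmium samples in 57.1% of duct genes, beside 30.4% of all genes. The share was 50% in the Notch and Hippo list, 50% in the cystic disease list and 44.4% in the receptors. Among markers it was 54.5% for stellate cells, 9.09% for macrophages, 12.5% for endothelial cells and 81.8% for hepatocytes. Pkhd1 stood between, with replicate 2 above every control in 3 of its 4 peaks.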

How the data were processed

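The authors deposited 1 table of m6A peaks with 6 columns of raw counts per peak, and the authors' own log2 fold change, p-value, adjusted p-value and call, used for comparison only. Per the submitters' processing notes the build was mm10 and the tools included STAR 2.7.1a, MACS2 2.1.1, cutadapt 1.1.8, DESeq2 "4.1.0" and SAMtools 1.3.1. Their settings, the treatment of duplicates, strand and whether peaks were called on pooled samples are not given in the sources used here. Column headers are numbers that an IP and an input library share; reading them as IP libraries, because the rows are m6A peaks, is an assumption. Of the peaks, 4582 carry more than 1 symbol and 1555 carry none.

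The main test was that of edgeR 4.0.16, run in R 4.3.3 (filterByExpr with minimum count 10 and minimum total 15, TMM, quasi-likelihood F test, 3 against 3 samples, Benjamini-Hochberg over all peaks). SE is the absolute log2 change over the square root of F. This gave 37088 tested peaks and 2325 called. Gene totals sum all peaks that hold the symbol. DESeq2 1.42.0, other scalings and left-out samples were alternatives. The scripts were tested on simulated data. Listed genes were named where their leading peak was called, and by likeness to the 3 genes. In the duct list, genes whose leading peak was among the highest were named as well. The members and lists were chosen with earlier results of these data known.

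Equal replicate numbers are batches in the labels. Deviations from group means correlated at 0.146, 0.214 and 0.174 within batches and at -0.173 to 0.0163 across them. The biological coefficient of variation was 19.4%.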

Additional observations from a re-analysis of the deposited data

How the results depend on the processing

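All 168 values of the 14 peaks under the alternatives stayed above 0, with 145 on the same side of the threshold, 19 newly past it and 4 no longer past it. All peaks called were 2325, and 3710 with DESeq2 and 543 to 1976 with 1 sample left out. Called peaks of the 3 genes were 1, and 8 with DESeq2, 2 with library totals in place of TMM and 0 to 12 with 1 sample left out. Called gene totals were 1, 0 to 3 with 1 sample left out, and 2 with library totals, where Sox9 was added (edgeR adjusted p = 0.0397). The share difference of Spp1 peaks 1 and 2 was -6.76 to -5.18 points with 1 sample left out.

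With 1 sample left out, the genes called higher were 0 to 4 of the duct list (4 with DESeq2), 0 to 1 of the Notch and Hippo list, 0 to 1 of the cystic disease list, 0 to 2 of the receptors, 2 to 7 of the macrophage markers, 4 to 6 of the stellate markers and 0 to 1 of the endothelial markers, and 0 to 1 hepatocyte markers were called lower. Summed counts called 1 duct gene lower, Onecut1, at a log2 change of -1.43 (edgeR adjusted p = 0.0187). With the replicate block, 1 of 14 peaks was called, Pkhd1 peak 1 at a log2 change of 1.54 (edgeR adjusted p = 0.0171), and the Pkhd1 total had 0.89 (edgeR adjusted p = 0.0400); the block changed no call among the 3 genes or the named listed genes. The causes of these shifts were not tested. Levels of Sox9 and Pkhd1 rest on low counts, which limits the precision of single peaks.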
